A study of Mus musculus with 36 samples.

Results

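The nuclear genes for the subunits of the mitochondrial respiratory chain and ATP synthase were followed in the mouse left ventricle. Members were all genes whose single annotated symbol begins with Nduf, Sdha, Sdhb, Sdhc, Sdhd, Uqcr, Cyc1, Cox4, Cox5, Cox6, Cox7, Cox8 or Atp5, which gave 88 of the 12393 genes on the array, measured by 161 probe sets. They comprise 6 core and 28 accessory subunits of complex I, 4 subunits of complex II, 9 of complex III, 16 of complex IV and 17 of complex V. A further 8 are assembly factors taken in by the same letters: Ndufaf1, Ndufaf3, Ndufaf4, Ndufaf5, Ndufaf7, Sdhaf1, Sdhaf2 and Sdhaf4. Ndufa4 was counted with complex I by its symbol although it is known as a subunit of complex IV, and Cox7a2l, counted with complex IV, is known as a factor that joins complexes. The rule uses symbols alone. A further 8 probe sets that carry several symbols, one of which begins with these letters, were left out.

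The series holds 36 single-channel Affymetrix arrays, 1 per mouse, of left ventricle taken 8 weeks after surgery. Mice had transverse aortic constriction (TAC), in which the aorta is narrowed so that the left ventricle pumps against a raised pressure, or a SHAM operation without it. Hearts were taken at ZT03, ZT07, ZT11, ZT15, ZT19 and ZT23, where ZT is zeitgeber time, the time in the lighting cycle, with 3 mice at each time after each surgery. The labels call the 3 mice biological replicates; the labels name no strain, sex, age or lighting schedule.

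Complexes I to IV pass electrons from NADH and succinate to oxygen and pump protons across the inner mitochondrial membrane, and complex V uses the proton gradient to make ATP. The heart depends on this pathway more than most tissues, since the cardiomyocyte is packed with mitochondria. Most subunits are encoded in the nucleus, and the genes are known to share regulators such as the nuclear respiratory factors, the estrogen-related receptors and the coactivators of the PGC-1 family.

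Each value is a log2 level relative to the median of the mouse's own surgery. The median of each probe set was 0 over the 18 SHAM mice and likewise over the 18 TAC mice, so that whether a member was higher or lower in TAC than in SHAM hearts cannot be read from these data, and neither can the presence of a cell type's markers. What remains is how each surgery's hearts varied over the day, the differences between mice of one group, and how these compare between surgeries. Whole-array medians lay between -0.036 and 0.027. In 4 arrays the markers of airway epithelium (replicate 3 of SHAM ZT23, replicate 1 of TAC ZT23 and replicate 3 of TAC ZT03) or thymocytes (replicate 3 of SHAM ZT11) averaged above 1. White adipocyte markers averaged above 1 in replicate 3 of SHAM ZT11 (1.35), of TAC ZT11 (1.13) and of TAC ZT15 (1.10), and results are given without such arrays where it matters.

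In SHAM hearts the members lay close together, and in TAC hearts a few mice stood apart with almost the whole set. In replicate 2 of TAC ZT11, 79 of the 88 members were below 0, with a median of -0.23, and in replicate 3 of the same time 78 were below 0, with a median of -0.12. In replicate 1 of that time 15 were below 0, with a median of 0.06. The highest array was replicate 3 of TAC ZT15, one of those with adipocyte markers, with 5 members below 0 and a median of 0.19. The low and the high array of ZT11 thus came from mice of the same surgery and time. The lowest SHAM array, replicate 3 of ZT03, had 75 members below 0 but a median of only -0.08.

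**Figure D1:**
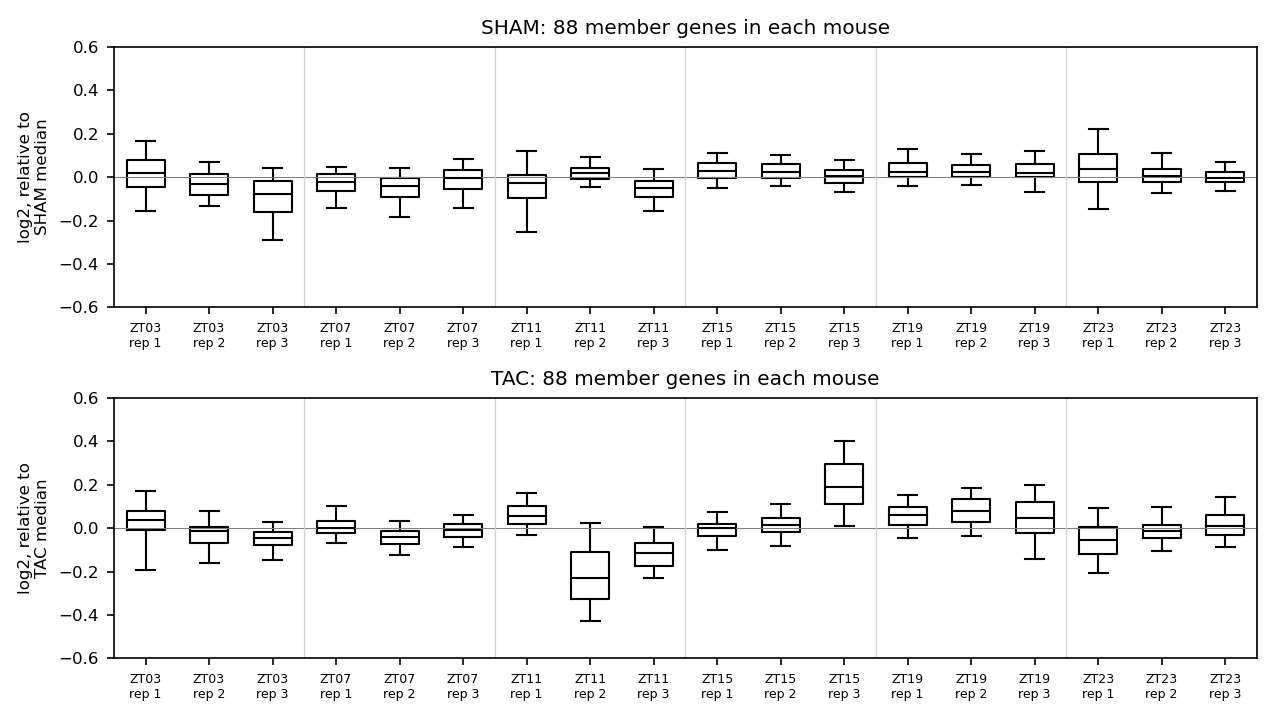
Levels of the 88 members in each mouse, with SHAM above and TAC below; the y axis is the log2 level relative to the surgery's median, the line is the median over members, the box the middle 50% and the whiskers reach the 5th and 95th percentiles. Replicates 2 and 3 of TAC ZT11 lie low (medians -0.23 and -0.12) and replicate 3 of TAC ZT15 lies high (0.19).

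The members moved together between mice of the same group. After each gene's group mean was taken off, the mean Pearson correlation over the 3828 pairs of members was 0.47 across the 18 TAC arrays and 0.18 across the 18 SHAM arrays, against 0.02 for all genes in each surgery. In TAC, pairs within a complex averaged 0.53 and pairs from different complexes 0.45. These correlations share the array and its scaling, and they are given as a description. Ndufa5, an accessory subunit of complex I, had the highest mean correlation with the other members in TAC (0.66). Cox8a, the ubiquitous form of a small complex IV subunit, ran against the rest, with a mean correlation of -0.50 in TAC and -0.35 in SHAM. Cox8c and Cox4i2, 2 further isoforms of complex IV, hardly followed the others in TAC (-0.04 and 0.02).

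The spread between TAC mice was set beside a marker of the response to load. Myh7, the slow myosin heavy chain that adult mouse ventricle re-expresses under pressure load, ranged from -1.95 to 1.62 among the TAC mice and from -0.37 to 0.32 among the SHAM mice, with within-group SDs of 0.77 and 0.12. From the lowest to the highest mouse, Myh7 was -1.70, -0.54 and 0.32 at ZT03, -0.17, 0.28 and 0.41 at ZT07, and -0.32, 0.75 and 1.17 at ZT11. It was -1.95, -0.30 and -0.28 at ZT15, -1.44, -1.31 and 0.17 at ZT19, and 0.96, 1.54 and 1.62 at ZT23. All 3 mice at ZT23 were therefore above 0, and the mice of the other times were spread on both sides or, at ZT15, all below it. The mouse that was highest in the respiratory chain genes had the lowest Myh7, and the mouse that was lowest in them had a Myh7 of 1.17. Other mice did not keep this order. At ZT23 the mice with a Myh7 of 1.62 and 1.54 had member medians of only -0.01 and -0.05, and the mouse with 0.96 had 0.01.

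Within the 6 TAC times, 5 genes of oxidative phosphorylation were lower in mice with more Myh7, and most of the others leaned the same way without passing the test. The slope of the log2 level on log2 Myh7, fitted with limma with a mean for each time, was below 0 for 82 of the 88 members (56.5% of all genes), with a median of -0.07 against -0.01 for all 12392 genes. After Benjamini-Hochberg adjustment over all genes 5 members passed at 0.05, all below 0, where 0.549% of all genes passed below 0 (1.42% in either direction). They were Sdha and Uqcrc2, Ndufa13 and Ndufa12, and Atp5o, so that complexes I, II, III and V were represented. At an unadjusted p under 0.05 there were 49 members below 0 (6.96% of all genes) and 0 above it (5.33%). In the mouse with the highest Myh7 of a time, 17 members were lower than in the mouse with the lowest at 6 of 6 times (2.15% of all genes), and 43 at 5 or more (14.6%). The number that passed moved between 0 and 12 when single TAC arrays were left out: it was 0 without replicate 1 of ZT11 or replicate 3 of ZT15, and 12 without replicate 1 of ZT19, while 78 to 83 slopes were below 0. The counts over all genes in these fits are not given here, so a shift of the whole array is not set apart from one of the members. With 1 of the 18 TAC arrays left out at a time, Ndufa13 passed in 15 fits, Sdha in 14, Ndufa12 in 10, Uqcrc2 in 8 and Atp5o in 7. With quantile normalization 0 members and 23 of all genes passed, and 80 member slopes were below 0. With the replicate number as a block 1 member and 153 of all genes passed, and 83 member slopes were below 0. Without the arrays with adipocyte markers, a choice made after the data were seen, 0 members and 85 of all genes passed. There 78 member slopes were below 0, with Sdha at -0.16 (adjusted p = 0.103 in limma).

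**Figure D2:**
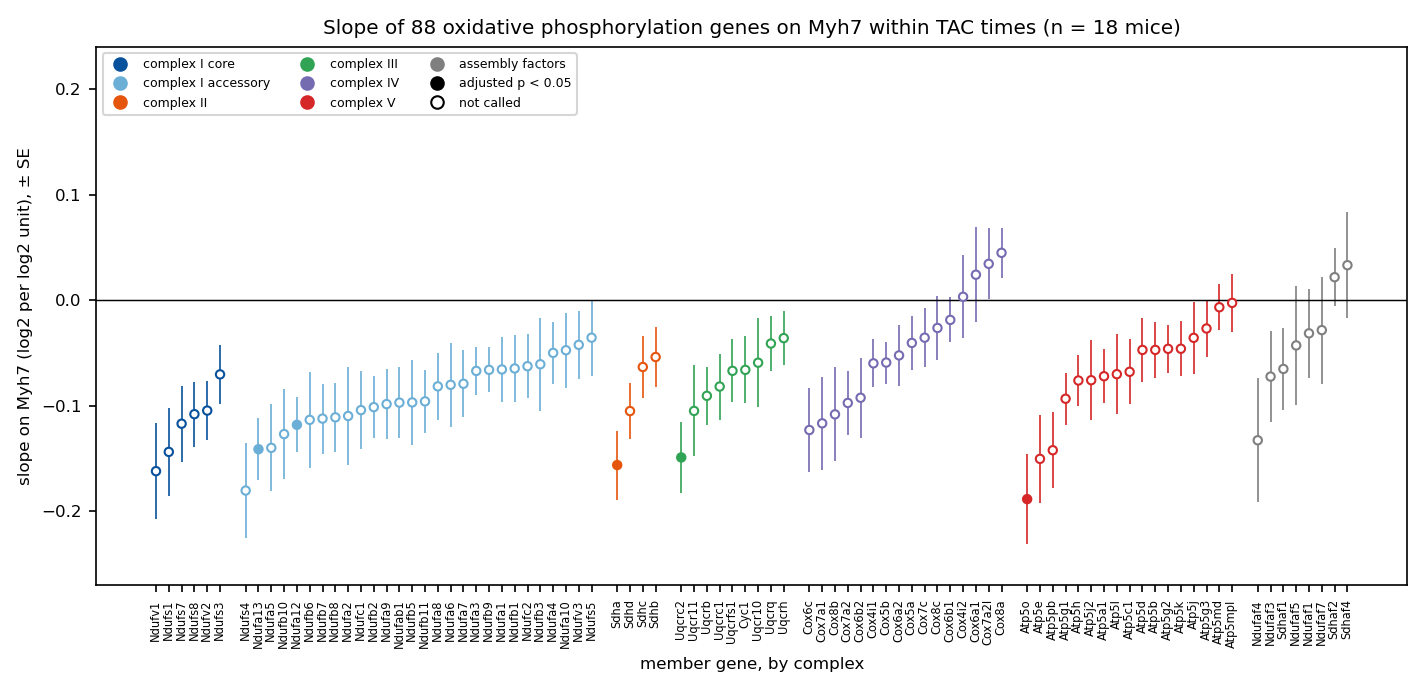
Slope of each of the 88 members on Myh7 within the TAC times (y axis, log2 per log2 unit, bars ± SE, n = 18 mice), grouped by complex and ordered within it; filled points passed at an adjusted p of 0.05. All slopes of complexes I, II, III and V lie below 0, and 4 of complex IV and 2 of the assembly factors lie above it.

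Complex II, which oxidises succinate and is shared with the tricarboxylic acid cycle, held the member with the smallest p. Sdha, its flavoprotein and catalytic subunit, had a slope of -0.16 (SE 0.033, n = 18 mice, adjusted p = 0.0267 in limma), which is a change of -10.3% for each doubling of Myh7. In order of rising Myh7, Sdha was 0.20, 0.06 and -0.15 at ZT03, 0.01, -0.04 and 0.10 at ZT07, and 0.11, -0.18 and -0.37 at ZT11. It was 0.25, near 0 and 0.05 at ZT15, 0.18, 0.13 and 0.04 at ZT19, and -0.06, -0.27 and -0.11 at ZT23. The mouse with the most Myh7 was lower than the mouse with the least at 5 of 6 times, ZT07 being the exception, and the times overlapped. Over the SHAM arrays Sdha ran from -0.16 to 0.11. The other subunits of complex II also had slopes below 0, and none of them passed: Sdhd, a membrane anchor, -0.11 (adjusted p = 0.0635), Sdhc -0.06 and Sdhb, the iron-sulfur subunit, -0.05.

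In complex I, which accepts electrons from NADH, all 34 slopes were below 0. The 6 core subunits, which carry out electron transfer, had slopes between -0.16 and -0.07, and 6 of 6 had an unadjusted p under 0.05, although none passed after adjustment. The steepest of them were Ndufv1, which binds NADH and flavin (-0.16, adjusted p = 0.104), and Ndufs1, an iron-sulfur subunit (-0.14, adjusted p = 0.118). Of the 28 accessory subunits, which surround and stabilise the core, 20 had an unadjusted p under 0.05 and 2 passed. Ndufs4, an accessory subunit of the NADH-oxidising arm, had a steeper slope than either (-0.18) and missed the threshold (adjusted p = 0.0594).

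Ndufa13 was the first of the accessory subunits that passed, with a slope of -0.14 (SE 0.030, adjusted p = 0.0269 in limma). In order of rising Myh7 it was 0.10, 0.07 and -0.05 at ZT03, -0.02, -0.04 and -0.01 at ZT07, and 0.10, -0.20 and -0.29 at ZT11. It was 0.27, -0.08 and 0.02 at ZT15, 0.17, 0.16 and 0.01 at ZT19, and 0.06, -0.17 and -0.02 at ZT23. At ZT07, where Myh7 varied least, the 3 mice hardly differed, and at the other 5 times the mouse with the least Myh7 was the highest. Ndufa12 had a slope of -0.12 (SE 0.026, adjusted p = 0.0322 in limma) and was lower in the mouse with the most Myh7 at 6 of 6 times. Its ends were -0.21 in replicate 2 of ZT11 and 0.29 in replicate 3 of ZT15, and its SHAM arrays ran from -0.17 to 0.09. Its 4 probe sets all had slopes below 0.

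In complex III, which passes electrons from ubiquinol to cytochrome c, all 9 slopes were below 0, 5 had an unadjusted p under 0.05 and 1 passed. Uqcrc2, a core protein of the matrix side, had a slope of -0.15 (SE 0.034, adjusted p = 0.0374 in limma). In order of rising Myh7 it was 0.04, -0.09 and -0.11 at ZT03, 0.09, -0.07 and 0.02 at ZT07, and 0.18, -0.13 and -0.37 at ZT11. It was 0.22, -0.09 and -0.06 at ZT15, 0.12, 0.07 and -0.02 at ZT19, and 0.04, 0.06 and -0.05 at ZT23. The widest gap between mice of 1 time was at ZT11, and the order by Myh7 held between the extreme mice at 6 of 6 times. The redox subunits of the complex, Cyc1 (cytochrome c1) and Uqcrfs1 (the Rieske iron-sulfur protein), each had a slope of -0.07 and did not pass.

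In complex V all 17 slopes were below 0, 7 had an unadjusted p under 0.05 and 1 passed. Atp5o, the stalk subunit that holds the catalytic head to the membrane part, had the steepest slope of all members, -0.19 (SE 0.043, adjusted p = 0.0376 in limma), or -12.3% for each doubling of Myh7. In order of rising Myh7 it was 0.06, -0.23 and -0.16 at ZT03, -0.09, 0.02 and near 0 at ZT07, and 0.20, -0.25 and -0.31 at ZT11. It was 0.50, -0.04 and 0.06 at ZT15, 0.19, 0.36 and 0.06 at ZT19, and -0.07, 0.05 and -0.01 at ZT23. The order of the extreme mice held at 4 of 6 times, and at ZT07 and ZT23 the values lay close together. Its pair of probe sets had slopes of -0.09 and -0.29. Atp5a1 and Atp5b, the alpha and beta subunits of the catalytic head, had slopes of -0.07 and -0.05 that did not pass.

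**Figure D3:**
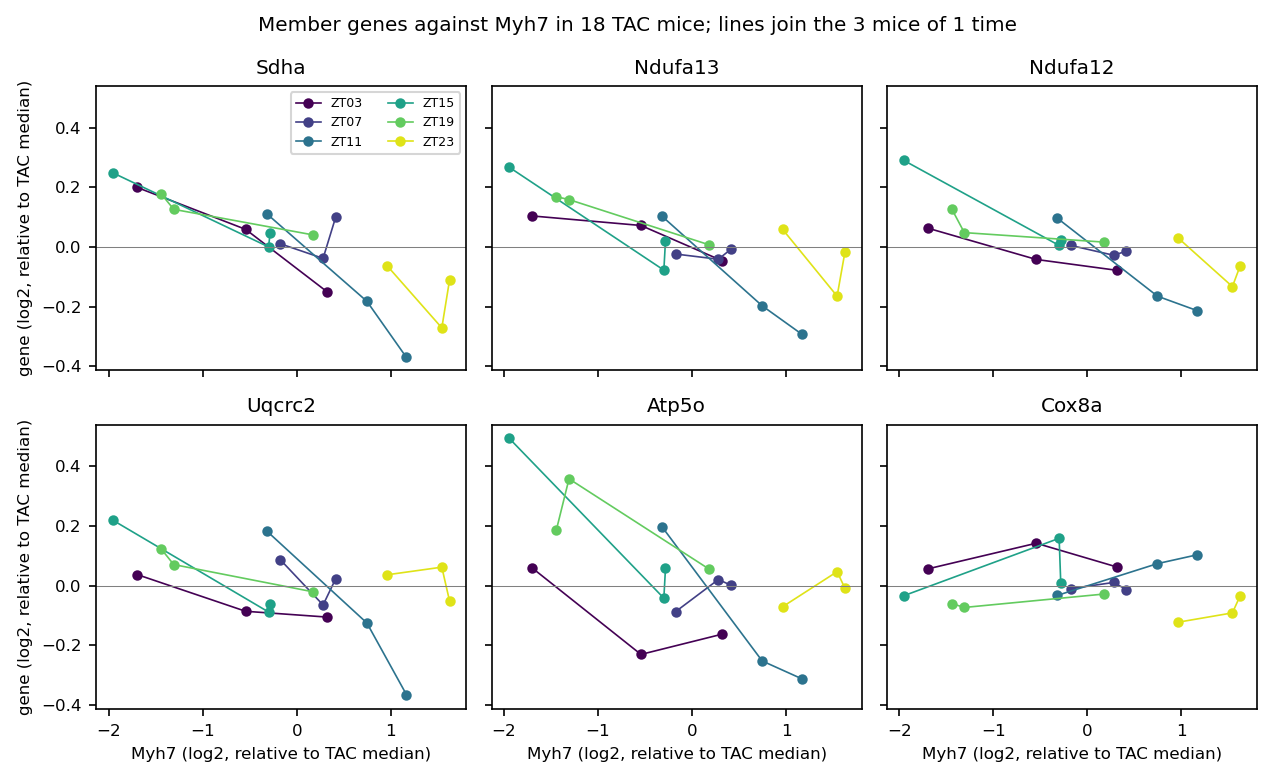
The 5 members that passed and Cox8a against Myh7 in the 18 TAC mice, both as log2 levels relative to the TAC median; colours mark the time and lines join the 3 mice of a time. The lines of the 5 run downward at most times, with slopes from -0.12 to -0.19, and those of Cox8a do not (slope 0.04, not called).

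Complex IV, which reduces oxygen, was the only complex with slopes on both sides of 0. Of its 16 genes 12 had slopes below 0, 7 had an unadjusted p under 0.05 and 0 passed. The 4 above 0 were Cox8a (0.04), Cox7a2l (0.03), Cox6a1 (0.02) and Cox4i2 (0.0031), of which none had an unadjusted p under 0.05. Several subunits of this complex come as pairs of isoforms, and both genes of a pair were measured. In some pairs, such as Cox8b and Cox8a, a form found mainly in heart and muscle stands beside a form found widely. Not every pair is of this kind, and Cox4i1 with Cox4i2 and Cox6b1 with Cox6b2 are not. The muscle form Cox8b had a slope of -0.11 (adjusted p = 0.320) and the ubiquitous Cox8a one of 0.04 (adjusted p = 0.490). The log2 ratio of Cox8b to Cox8a had a slope of -0.15 (SE 0.050, adjusted p = 0.171 in limma), so the difference within the pair did not pass. Without replicate 3 of TAC ZT15 the slope of this ratio was -0.087 (adjusted p = 0.633 in limma). In replicate 3 of TAC ZT15 Cox8b was 0.40 and Cox8a -0.03, and in replicate 2 of TAC ZT11 they were -0.28 and 0.10. The other ratios, Cox4i1 to Cox4i2, Cox6a2 to Cox6a1, Cox7a1 to Cox7a2 and Cox6b1 to Cox6b2, had slopes of -0.06, -0.08, -0.02 and 0.07, with adjusted p from 0.548 to 0.922. All 3 probe sets of Cox8a had slopes above 0.

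The 8 assembly factors, which help to build complexes I and II and are not part of them, had a median slope of -0.04. Of these, 6 were below 0 and 1, Ndufaf4, had an unadjusted p under 0.05 (-0.13, adjusted p = 0.364 in limma). Sdhaf2, which attaches flavin to Sdha, and Sdhaf4 had slopes of 0.02 and 0.03. Among members with several probe sets, 6 of 46 had probe sets whose slopes differed in sign: Atp5k, Cox6a1, Ndufa10, Ndufab1, Sdhaf2 and Uqcrq.

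In SHAM mice, in which Myh7 varied little, most slopes were above 0. Of the 88 members 22 were below 0 (51.7% of all genes), 0 passed (0.0% of all genes) and 5 had an unadjusted p under 0.05 (3.20% of all genes). Those 5 were Ndufaf7, Ndufa8, Atp5md, Ndufa2 and Atp5a1, with SHAM slopes from 0.31 to 0.44. The difference of the TAC and SHAM slopes, tested over all 36 arrays with limma, was called for 0 members and 0 of 12392 genes, and 4 members had an unadjusted p under 0.05 (252 of all genes). The slope in TAC is therefore not shown to differ from that in SHAM.

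Most genes around the respiratory chain also had slopes below 0 in TAC. Of 17 genes of the tricarboxylic acid cycle, which feeds the chain, 17 were below 0 and 1 passed, Idh3a, a subunit of isocitrate dehydrogenase (-0.13, adjusted p = 0.0363). Of 21 genes for carriers, ubiquinone and adenine nucleotide handling 19 were below 0, and 2 passed: Etfa (-0.16) and Etfb (-0.20), the subunits of the flavoprotein that brings electrons from fatty acid oxidation to the chain. Of 19 further assembly and biogenesis factors 17 were below 0 and 0 passed (6 below and 1 above 0 had an unadjusted p under 0.05). Of 21 regulators of mitochondrial biogenesis 16 were below 0, and 1 passed, Ppargc1b (-0.16, adjusted p = 0.0197), a coactivator of the PGC-1 family. Against these, Nppb (0.39) and Ankrd1 (0.31), genes induced by load on the cardiomyocyte, passed above 0 among 14 genes of the hypertrophy list, of which 10 were above 0. Of all genes 56.5% had slopes below 0, while 0.549% passed below 0 and 0.872% above it.

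Some genes of fibroblasts and matrix rose with Myh7. All 15 fibroblast and matrix genes had slopes above 0 and 6 passed, where 0.872% of all genes passed above 0. The steepest was Postn, a matrix protein of activated fibroblasts (0.95). The mean of this list ran from -0.47 to 0.71 in TAC and from -0.15 to 0.17 in SHAM. Of 15 cardiomyocyte markers 10 were below 0 (56.5% of all genes) and 0 passed. An unadjusted p under 0.05 was found for 5, all below 0 (6.96% of all genes). The mean of these markers ran from -0.16 to 0.08 in TAC and from -0.09 to 0.07 in SHAM. Of 11 macrophage and leukocyte markers 10 were above 0 and 0 passed, with means from -0.31 to 0.31 in TAC and from -0.16 to 0.36 in SHAM. With the cardiomyocyte mean as a covariate 82 slopes were below 0, 33 had an unadjusted p under 0.05 and 0 passed. In bulk tissue fewer cardiomyocytes and less of these RNAs per cardiomyocyte cannot be told apart, and since the values are centred a 0 does not mark an absent gene.

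Promoter sequence was not used by the rule. RefSeq promoter sequences (build GRCm38.p6, the first listed start of each gene) were matched for 73 of the 88 members and searched on both strands. The letters of nuclear respiratory factor 1 (NRF1), a known regulator of these genes, which are GCGCA, any base and GCGC, were in 16 of them (21.9%), against 8.63% of the 9882 promoters of measured genes and 4.78% of all 27025. The YY1 letters AANATGGCG were in 8 (11.0%, against 4.31% of measured genes), and the ETS letters CCGGAAGT in 5 (6.85%, against 6.72%). The estrogen-related receptor letters TNAAGGTCA were in 2 (2.74%, against 0.87%), and the SP1 letters GGGCGG in 34 (46.6%, against 57.5%). Slopes on Myh7 had a median of -0.08 in the 16 members with the NRF1 letters and -0.07 in the 57 without.

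The 250 bases before the start are shown for 4 of the members with the NRF1 letters, which stand in capitals: Sdha, with 3 matches and the smallest p for the slope; Sdhd, its partner in complex II; Ndufaf4, which had a rhythm in SHAM hearts; and Cox6a1, whose slope was not below 0. All are read 5′ to 3′ on the strand of the gene, which lies at chr13:74350241-74350490 on the minus strand for Sdha, chr9:50603850-50604099 on the minus strand for Sdhd, chr4:24897833-24898082 on the plus strand for Ndufaf4 and chr5:115348959-115349208 on the minus strand for Cox6a1.
Sdha: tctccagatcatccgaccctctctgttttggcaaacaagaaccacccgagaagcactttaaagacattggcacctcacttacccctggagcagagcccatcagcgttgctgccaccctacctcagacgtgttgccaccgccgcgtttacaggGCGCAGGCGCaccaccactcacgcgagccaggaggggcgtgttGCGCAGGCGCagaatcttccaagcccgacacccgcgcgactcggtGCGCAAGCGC
Sdhd: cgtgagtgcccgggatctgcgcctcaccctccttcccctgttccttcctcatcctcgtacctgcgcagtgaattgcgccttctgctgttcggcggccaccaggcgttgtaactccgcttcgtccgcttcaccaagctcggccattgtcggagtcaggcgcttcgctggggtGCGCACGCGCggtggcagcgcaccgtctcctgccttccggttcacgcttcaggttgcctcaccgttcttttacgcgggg
Ndufaf4: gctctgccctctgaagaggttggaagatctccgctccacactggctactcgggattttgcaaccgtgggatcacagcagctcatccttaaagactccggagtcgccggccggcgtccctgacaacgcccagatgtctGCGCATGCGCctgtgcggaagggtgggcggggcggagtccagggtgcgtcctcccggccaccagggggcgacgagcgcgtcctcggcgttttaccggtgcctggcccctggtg
Cox6a1: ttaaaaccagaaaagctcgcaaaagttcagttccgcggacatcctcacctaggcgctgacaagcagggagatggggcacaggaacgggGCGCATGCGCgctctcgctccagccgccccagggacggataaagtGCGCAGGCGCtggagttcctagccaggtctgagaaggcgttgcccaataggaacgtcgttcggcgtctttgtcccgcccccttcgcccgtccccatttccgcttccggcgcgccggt
A match is a description of these letters and not a site of binding.

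Over the day the fitted changes of the members were small, though in TAC not smaller than those of all genes. The fitted amplitude of a 24-h cosine had a median over members of 0.04 in SHAM and 0.06 in TAC, on the log2 scale, against 0.05 for all genes in each. In SHAM hearts 1 member, Ndufaf4, had a rhythm at an adjusted p of 0.05 (5.58% of all genes), and in TAC hearts 1 member, Ndufaf1 (4.35% of all genes). A difference of rhythm between TAC and SHAM was called for 0 members (0.0484% of all genes), and 0 members had an unadjusted p under 0.05 in that limma test (6.27% of all genes). At this threshold the share of members with a rhythm was below that of all genes in each surgery. At an unadjusted p under 0.05 there were 9 members in SHAM (10.2%, against 18.8% of all genes). In TAC there were 21 (23.9%, against 19.8% of all genes), so that there the share was higher among the members. Quantile normalization gave 9 calls in SHAM and 2 in TAC (11.5% and 4.32% of all genes), and fitting the 18 arrays of a surgery alone gave 7 and 0 (9.41% and 1.15% of all genes).

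Ndufaf4, an assembly factor of complex I, had an amplitude of 0.23 (SE 0.056) in SHAM with a peak at ZT18.9 (SE 0.92 h, adjusted p = 0.0226 in limma). In SHAM its 3 mice were -0.09, -0.08 and -0.35 at ZT03, -0.31, -0.29 and -0.30 at ZT07, and -0.11, 0.09 and -0.14 at ZT11. They were 0.04, 0.06 and -0.01 at ZT15, 0.14, 0.23 and 0.26 at ZT19, and 0.26, 0.09 and 0.04 at ZT23. All mice of ZT19 lay above all mice of ZT03, ZT07, ZT11 and ZT15. The call was lost when replicate 1, 2 or 3 of SHAM ZT07 or replicate 2 or 3 of SHAM ZT19 was left out. In TAC Ndufaf4 had an amplitude of 0.18 and a peak at ZT19.1 (adjusted p = 0.133), and its rhythm did not differ between the surgeries at the threshold (adjusted p = 0.963). At ZT23 the TAC mice were -0.45, -0.09 and 0.27, a wider gap than at any SHAM time.

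Ndufaf1, another assembly factor of complex I, had an amplitude of 0.14 (SE 0.034) in TAC with a peak at ZT18.6 (SE 0.94 h, adjusted p = 0.0345 in limma). Its TAC mice were -0.27, -0.25 and -0.02 at ZT03, -0.03, -0.05 and -0.02 at ZT07, and 0.04, -0.35 and -0.17 at ZT11. They were -0.07, 0.10 and 0.24 at ZT15, 0.19, 0.09 and 0.12 at ZT19, and 0.08, 0.02 and 0.05 at ZT23. All mice of ZT19 and ZT23 lay above all mice of ZT03 and ZT07, and the times ZT11 and ZT15 overlapped with both. Left out singly, replicates 1 and 2 of TAC ZT03, replicates 2 and 3 of TAC ZT15 and replicates 1, 2 and 3 of TAC ZT19 each ended the call, as did leaving out the arrays with adipocyte markers (adjusted p = 0.0904 in limma). In SHAM its amplitude was 0.08 (adjusted p = 0.306), and the rhythms did not differ at the threshold (adjusted p = 0.902).

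The test for a change of any shape over the 6 times called 0 members in SHAM (3.37% of all genes), where 3 had an unadjusted p under 0.05 (13.2% of all genes), and 4 in TAC (5.26% of all genes), where 27 had an unadjusted p under 0.05 (20.3% of all genes). The 4 were Ndufaf1 (adjusted p = 0.0264 in limma), Ndufa8 (0.0346), Ndufaf4 (0.0346) and Uqcr10 (0.0460). Ndufa8, an accessory subunit of complex I, had TAC means of -0.16 ± 0.17 at ZT11 and 0.15 ± 0.01 at ZT19 (SD, n = 3). Uqcr10, a small subunit of complex III, went from -0.12 ± 0.16 at ZT11 to 0.19 ± 0.18 at ZT15 (SD, n = 3). In Uqcr10 the 3 mice of ZT15, at 0.07, 0.10 and 0.40, lay above all of ZT11, at -0.09, -0.29 and 0.03. The count moved with single mice: it was 35 without replicate 1 of TAC ZT11 and 0 without replicate 1 of TAC ZT19 or without the arrays with adipocyte markers. The shares of all genes in these fits are not given here, so a shift of the whole array is not set apart from one of the members. With 1 of the 36 arrays left out at a time, Ndufaf1 and Ndufaf4 each passed in 32 fits, Ndufa8 in 28 and Uqcr10 in 11. A difference in time course between TAC and SHAM was called for 0 members (0.0161% of all genes), and 3 had an unadjusted p under 0.05 in limma (5.57% of all genes), Atp5g2, Atp5b and Ndufaf4.

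**Figure D4:**
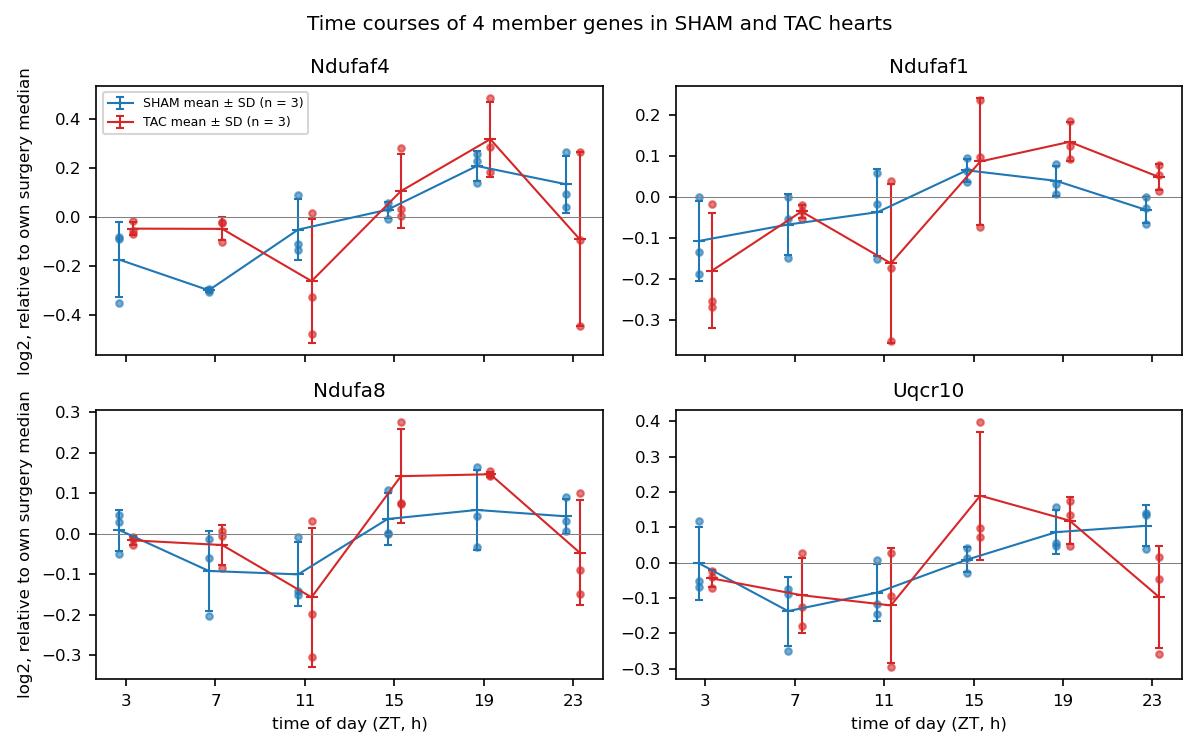
Levels of Ndufaf4, Ndufaf1, Ndufa8 and Uqcr10 over the day (x axis, ZT in h; y axis, log2 level relative to the surgery's own median) in SHAM (blue) and TAC (red); points are mice, bars mean ± SD (n = 3). SHAM and TAC were centred separately, so only the shapes can be compared; Ndufaf4 peaks at a fitted ZT18.9 in SHAM and ZT19.1 in TAC.

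Many of the fitted peaks of the members fell in one part of the cycle. Between ZT16 and ZT20 lay 47 of the 88 peaks in SHAM (14.3% of all genes) and 53 in TAC (21.9% of all genes). Between ZT4 and ZT8, where 27.5% of all genes peaked in SHAM and 23.5% in TAC, there were 3 and 2 members. By complex, 16 of 28 accessory subunits of complex I peaked between ZT16 and ZT20 in SHAM and 19 in TAC, 8 and 10 of 16 genes of complex IV, and 10 and 8 of 17 genes of complex V. In the smaller groups there were 4 and 3 of 6 core subunits of complex I, 2 and 3 of 4 genes of complex II, 2 and 5 of 9 of complex III, and 5 and 5 of 8 assembly factors. Most of these peaks belong to small amplitudes that passed no test, and since the members share their arrays they are not independent of each other.

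**Figure D5:**
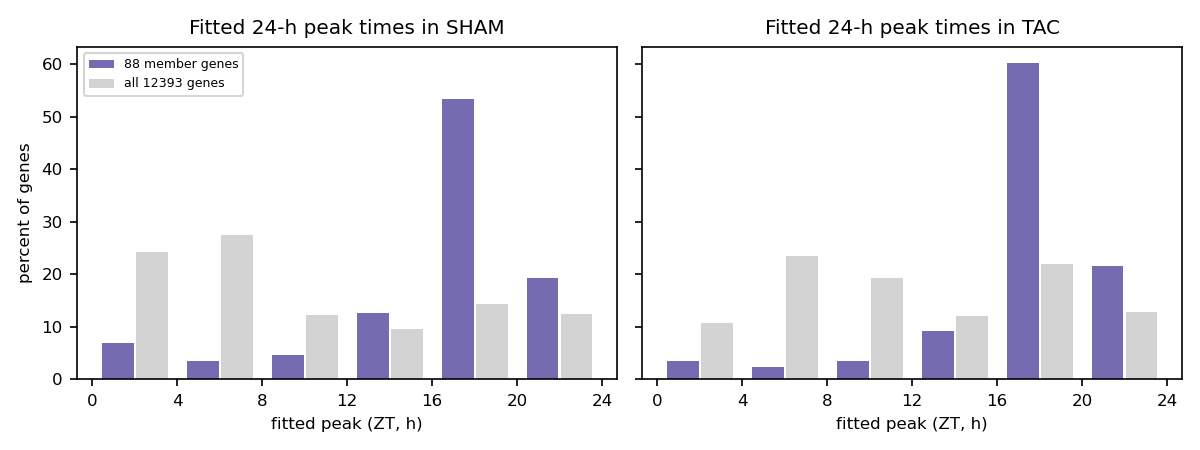
Share of the 88 members (purple) and of all 12393 genes (grey) with a fitted 24-h peak in each 4-h window, in SHAM and TAC; the x axis is ZT in h and the y axis percent of genes, whether or not a rhythm passed. The window from ZT16 to ZT20 holds 53.4% of the members in SHAM and 60.2% in TAC.

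Of genes around the chain, 2 carriers had a rhythm in SHAM. Slc25a5, an adenine nucleotide translocase that exports ATP from mitochondria, peaked at ZT17.9 with an amplitude of 0.20 (adjusted p = 2.9e-04 in limma), within the window of most members. Ucp3, an uncoupling protein family member, peaked at ZT6.6 with an amplitude of 0.56 (adjusted p = 1.7e-04). Among the regulators Gabpb1, a subunit of nuclear respiratory factor 2, had a rhythm in both surgeries with peaks at ZT2.7 and ZT2.1, and Pprc1, a PGC-1 related coactivator, in TAC with a peak at ZT21.1.

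The spread between mice of a group was compared directly. The SD was higher in TAC than in SHAM for 64 of the 88 members (71.3% of all genes), with a median ratio of 1.47 against 1.25 for all genes. The limma test on the log2 SDs of the 12 groups called 0 members (0.0161% of all genes), and 18 had an unadjusted p under 0.05 (8.93% of all genes), 17 of them with the higher SD in TAC (8.28% of all genes). The smallest p values belonged to Ndufa13 (log2 ratio 1.80, adjusted p = 0.299), Ndufaf3, an assembly factor of complex I (1.75, adjusted p = 0.350), and Ndufs1 (1.57, adjusted p = 0.380). The median ratio was 1.56 over the core subunits of complex I, where 6 of 6 were higher in TAC, and 1.25 over complex IV, where 9 of 16 were. Atp5md, a small subunit of complex V, went the other way (-1.10, adjusted p = 0.548).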

How the data were processed

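The authors' deposited table holds log-scale values of 22690 probe sets on 36 arrays, taken here as log2; no source used here states the log base, normalization or software. Per the labels' protocols, RNA was extracted with Trizol and labelled with biotin. Each probe set is centred on its median within each surgery, so TAC and SHAM levels were not compared. No pair of arrays was identical. The platform annotation gave 1 symbol for 20393 probe sets (13 controls were left out), several for 691 and none for 1606; the probe sets of a gene were averaged.

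limma 3.58.1 in R 4.3.3 was fitted to all genes, with eBayes without trend and Benjamini-Hochberg adjustment over all genes at 0.05. The fits were a 24-h cosine and sine per surgery, 12 group means, a slope on Myh7 within TAC times, and the log2 SDs of the 12 groups paired by time. The tests of the SHAM rhythm, the slope and the spread were run on simulated data, and the other tests were not. The simulated noise was independent between genes, unlike the members here, which moved together. Arrays give no counts, so their number limits the precision. Alternatives were other scalings, probe set rules, weights, covariates and arrays left out. Members named by rule are those with the smallest p of a test, overall and per complex, and the isoform pairs of complex IV. Further members were named for their part in a complex or for their value. Other genes are the up to 3 of a list with the smallest p. The members and lists were chosen with earlier results of these data known. The slopes in SHAM, the isoform ratios and the fits without a time or without the adipocyte arrays were added after the data were seen.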

Additional observations from a re-analysis of the deposited data

How the results depend on the processing

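Sources of doubt are few mice per group, centring within surgery, and single mice that carry much of the spread in TAC. Over alternatives that tested every member, 78 to 85 of 88 slopes were below 0 and 56 to 72 SDs higher in TAC. The SD was higher for 64 in the main fit (72.7%), near the 71.3% of all genes. The filter on SD left 45 members, of which 42 had slopes below 0 and 32 a higher SD in TAC. The count of members past the threshold depended on the setting. For the slope on Myh7 (5 members) it was 0 with quantile normalization, array weights or the cardiomyocyte covariate, 2 with array median centring, the atrial and adipocyte covariates or the matrix genes as the index, 3 with the probe set of largest SD or without the 4 arrays with airway or thymocyte markers, and 23 without time terms. Without the arrays with white adipocyte markers, a choice made after seeing the data, it was 0 for the slope, 2 for the SHAM rhythm, and 0 for the TAC rhythm and for any shape in TAC. For the slope it was 1, 1, 0, 0, 10 and 3 without ZT03, ZT07, ZT11, ZT15, ZT19 and ZT23, a choice made after seeing the data. Leaving out single arrays gave 0 to 12, and whole replicate numbers 0. It was 1 without replicate 1 of TAC ZT03 or ZT15, 2 without replicate 2 of TAC ZT03, ZT07 or ZT15, and 3 without replicate 2 or 3 of TAC ZT11. For the SHAM rhythm (1 member) it was 9 with quantile normalization or array weights, 7 with that surgery alone, 2 without the 4 arrays, 0 with the probe set of largest SD, and 0 to 2 over single arrays. For the TAC rhythm (1 member) it was 2 with quantile normalization, the probe set of largest SD, the genes with an SD above the median or the cardiomyocyte covariate, 3 with each probe set tested alone or without the 4 arrays, and 0 with array weights, the atrial and adipocyte covariates or that surgery alone; single arrays gave 0 to 4. For any shape in SHAM (0 members; 3 at an unadjusted p under 0.05 in limma) it was 3 with quantile normalization, 12 with array weights, 1 with array median centring, each probe set tested alone, the genes with an SD above the median, the cardiomyocyte covariate, without the 4 arrays or with that surgery alone, and 0 to 1 over single arrays. For any shape in TAC (4 members) it was 1 with quantile normalization or the atrial and adipocyte covariates, 8 with the cardiomyocyte covariate, 59 with array weights, 0 with that surgery alone, and 0 to 35 over single arrays; replicate numbers left out gave 0 to 21. It was 1 without replicate 2 or 3 of TAC ZT11 or replicate 2 of TAC ZT03 or ZT19, 2 without replicate 1 of TAC ZT03, replicate 3 of TAC ZT15 or ZT19, or replicate 2 of TAC ZT23, and 7 without replicate 3 of TAC ZT03 or replicate 1 of TAC ZT15. The difference in time course (0 members) gave 13 with array weights. For array weights limma warned that its convergence tolerance was not achievable, which limits all counts given with them. The causes of these shifts were not tested. The calls over all genes moved as well. For the slope they were 176 in the main fit, 23 with quantile normalization, 84 with array weights and 796 without time terms. With the cardiomyocyte covariate, and with the atrial and adipocyte covariates, they were again 176. They were 145 with array median centring, 245 with the matrix genes as the index and 158 with the probe set of largest SD. Without the 4 arrays they were 95, and without the arrays with adipocyte markers 85. Without ZT03, ZT07, ZT11, ZT15, ZT19 and ZT23 they were 63, 85, 111, 80, 191 and 167. The SHAM rhythm was called in 5.58% of all genes in the main fit, 11.5% with quantile normalization and 15.9% with array weights. For any shape and time course such shares under the alternatives are not given here. The difference of rhythm and the spread called 0 members under every alternative run. Deviations of mice with the same replicate number correlated from -0.36 to 0.43 (mean 0.04, against -0.02 for other numbers). For 23 of 36 arrays the best correlated array of another group carried the same number. The main fits do not use the numbers, and whether they mark a batch was not tested. With the replicate block the slope called 1 member and 153 of all genes, and no other member count fitted with it changed. None of the 5 called slopes changed sign under the alternatives run. The rhythm and any-shape calls were followed by an amplitude and a p, which have no sign to change.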
